A study of Mus musculus with 50 samples.

Results

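The 10 genes described here encode 5 beta-tubulins (Tubb5, Tubb6, Tubb3, Tubb2a and Tubb2b), 1 alpha-tubulin (Tuba1a), stathmin (Stmn1) and 3 microtubule-associated proteins (Map2, Map4 and Mapt). They were chosen by name with taxanes in view: beta-tubulins, which taxanes bind, an alpha-tubulin, and proteins that act on tubulin or microtubules. Each was read from the probe set that names that gene alone and has the highest mean. They stand among 22180 genes with such a probe set, and all 10 were among the 18045 genes tested.

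RNA was measured on 1 Affymetrix array for each of 50 mammary tumours that arose spontaneously in female MMTV-Erbb2 mice. The animals came from a backcross (F1Bx in the labels) of hybrids of C57BL/6J and FVB/NJ to FVB/NJ mice with the transgene MMTV-Erbb2, so that they differed in their share of C57BL/6J and FVB/NJ chromosomes. The MMTV promoter drives ErbB2 in the mammary epithelium. Each biopsy was taken before drug treatment, which the sample labels give as docetaxel and the title of the series as doxorubicin, and no response to a drug is given in the labels used here. The labels name no treated arm, no normal gland and no animal ages, so all 50 tumours form 1 group and the comparisons below are between tumours. Their p-values measure the spread between these tumours.

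Microtubules are hollow polymers of alpha- and beta-tubulin dimers that grow and shrink at their ends, and they build the mitotic spindle and the tracks of intracellular transport. Taxanes such as docetaxel bind beta-tubulin inside the polymer and hold it in the assembled state, which arrests dividing cells in mitosis. Stathmin works the other way, by sequestering dimers and promoting disassembly, while MAP2, MAP4 and tau (the product of Mapt) bind along the polymer and stabilise it. Tubb5 and Tubb6 are broadly expressed beta-tubulins, whereas Tubb3, Map2 and Mapt are best known from neurons, and altered beta-tubulin isotypes, tau and stathmin have each been studied as markers of taxane response.

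Values are log2 expression, so a difference of 1 is a 2-fold difference in signal. The label of the tissue was checked on epithelial markers. Krt18, a keratin of luminal epithelium, ran from 8.08 to 11.47 log2 with a median of 10.92, and Epcam ran from 8.61 to 11.74 with a median of 11.51. Erbb2 itself ran from 9.02 to 11.94. Correlated with every other array, an array had a mean r of 0.978 in the median, and 3 arrays stood under 0.96. In mid79 (0.916) Krt18, Epcam and the proliferation genes were at their lowest of the 50 tumours and the adipocyte and endothelial genes at their highest. In mid60 (0.931) Erbb2 was lowest and the skin and squamous genes were highest, and in mid100 (0.954) the skeletal muscle and macrophage genes were highest. The next array, mid9 (0.967), had the highest fibroblast and matrix score. The relations between genes and predictors, and those between pairs of genes, are therefore given for all 50 tumours and again for the 47 without mid79, mid60 and mid100.

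Tubb6 and Tuba1a varied most between tumours, Mapt least. Tubb6, a beta-tubulin, had its lowest value in mid115 (6.90 log2), a median of 7.76 and its highest value in mid9 (9.63), with an SD of 0.54 over the 50 tumours. Next to mid9 stood mid60 at 9.51 and mid100 at 8.74, and the other 47 tumours were at 8.58 or below. Its SD was larger than that of 90.3% of all tested genes, and the signal at the 95th percentile of tumours was 2.80-fold that at the 5th.

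Tuba1a, an alpha-tubulin, ran from 5.31 log2 in mid186 over a median of 6.29 to 8.04 in mid79 (SD 0.54, larger than in 90.5% of genes). The next highest tumours were mid9 at 7.63 and mid100 at 7.13. The span from the 5th to the 95th percentile was 2.98-fold, the widest of the 10 genes. Without the 3 arrays that stand apart it was 2.81-fold for Tuba1a and 2.44-fold for Tubb6.

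Tubb5, a broadly expressed beta-tubulin, ran from 10.41 log2 in mid186 over a median of 11.16 to 11.68 in mid111 (SD 0.28). The tumours formed 1 continuous range, with mid79 second from the bottom at 10.53. Tubb2a ran from 6.57 in mid130 over a median of 7.76 to 8.38 in mid111 (SD 0.35). Here the lowest tumour stood alone, since the next one, mid30, was at 7.09.

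Tubb3, the class III beta-tubulin, ran from 3.93 log2 in mid122 over a median of 4.38 to 5.49 in mid60 (SD 0.26). Only mid60 stood out, the next highest tumours being mid42 and mid9 at 4.82 each. Its median lay close to the filter on low genes, a mean of 4.09 log2, where signal is hard to tell from background. Tubb2b ran from 5.63 in mid115 over a median of 5.94 to 6.38 in mid60, and its SD of 0.18 was larger than in 29.3% of genes only.

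Stathmin, Stmn1, ran from 5.53 log2 in mid79 over a median of 6.36 to 7.0 in mid85 (SD 0.33), with no tumour apart from the range. Map2 had a long lower tail. It ran from 6.38 in mid79 over a median of 8.63 to 9.28 in mid54 (SD 0.48), and mid9 at 7.02 and mid60 at 7.74 were the next lowest. Without the 3 arrays its SD was 0.35.

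Map4, the microtubule-associated protein of non-neuronal cells, had the opposite tail. It ran from 6.68 log2 in mid115 over a median of 7.30 to 8.65 in mid79 (SD 0.42), followed by mid60 at 8.46, mid9 at 8.28, mid100 at 8.22 and mid111 at 8.20. The 4 arrays least like the others were thus the 4 highest for Map4. Its SD without 3 of them was 0.32. Mapt ran from 4.38 in mid128 over a median of 4.70 to 4.91 in mid26 and mid145, and its SD of 0.13 was larger than in 9.22% of genes.

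Over the 10 genes the median SD was 0.34, against 0.23 over all tested genes, and 8 of 10 lay above the median of all genes. Signal at the 95th percentile of tumours was 2-fold that at the 5th or more in 6 of the 10 genes (Tuba1a, Tubb6, Map4, Map2, Tubb2a and Stmn1) and in 23.8% of all tested genes. In the 47 tumours it was so in 3 of the 10 (Tuba1a, Tubb6 and Tubb2a) and in 19.3% of all genes, and the median SD was 0.32, against 0.21 over all genes, with 8 of 10 above it.

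**Figure D1:**
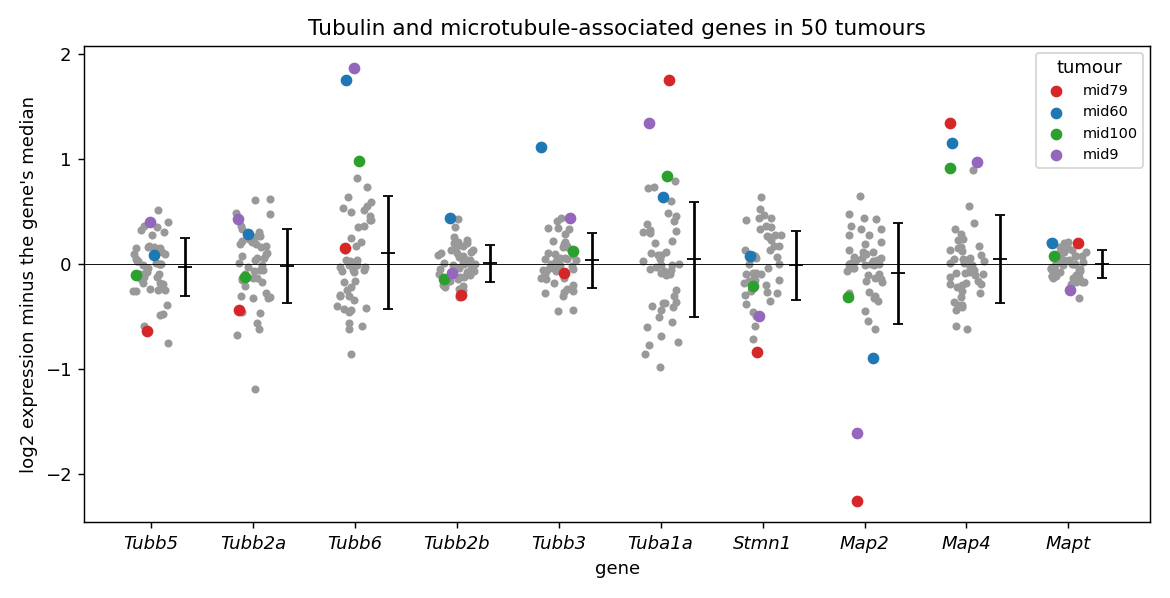
Each point is 1 of 50 tumours; the vertical axis is the log2 expression of a gene minus that gene's median, and the bar beside each column of points is the mean ± SD. The 4 coloured tumours lie at the top for Map4 (8.22 to 8.65 log2), and mid79 and mid9 lie at the bottom for Map2 (6.38 and 7.02).

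The levels were then set against 6 predictors, each standardised over tumours. These were the Erbb2 level and 5 scores, a score being the mean over the standardised genes of a list: 30 proliferation genes such as Mki67 and Top2a, 19 luminal, 13 basal and myoepithelial, 21 fibroblast and matrix, and 20 endothelial genes. None of the lists holds a tubulin or microtubule-associated gene. A slope is the change in log2 expression per SD of the predictor, given with its standard error, and the adjusted p is limma's after Benjamini-Hochberg adjustment over all tested genes, called under 0.05. Of the 60 relations, 28 were called over all 50 tumours and 11 of these 28 were also called without the 3 arrays.

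Proliferation genes went with the beta-tubulin Tubb5 and with stathmin. Over all 50 tumours 3 of 10 genes were higher with the proliferation score, where 11.3% of all tested genes were, and 1 was lower, where 8.18% were. Tubb5 had a slope of 0.19 ± 0.03 log2 per SD (limma, adjusted p = 5.69e-06; r = 0.672 and rho = 0.676, two-sided permutation p = 1e-05 each, the smallest that 100000 permutations can give). In mid79, with the lowest score (-3.23), Tubb5 was at 10.53, and in mid85 and mid105, with the highest scores (1.67 and 1.60), it was at 11.56 and 11.47. Leaving out the 2 tumours farthest from the median score, mid79 and mid54, gave r = 0.650.

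Stmn1 had a slope of 0.21 ± 0.04 (adjusted p = 2.16e-05; r = 0.643, rho = 0.619, permutation p = 1e-05 each, and r = 0.552 without mid79 and mid54). Its lowest tumour was the one with the lowest proliferation score, mid79, and its highest, mid85, the one with the highest. Over the 47 tumours both were called again and no other gene of the 10 was, beside 4.88% of all genes higher and 2.12% lower. The slopes were 0.17 ± 0.03 for Tubb5 (adjusted p = 1.07e-04) and 0.18 ± 0.04 for Stmn1 (adjusted p = 0.00124).

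For Map2 (0.23 ± 0.06, adjusted p = 0.00456) and Map4 (-0.16 ± 0.05, adjusted p = 0.0288) the calls with proliferation did not hold without the 3 arrays. There the slopes were 0.07 ± 0.05 (adjusted p = 0.516) and -0.06 ± 0.05 (adjusted p = 0.559). Without mid79 alone both calls were also lost. The other 6 genes were not called with proliferation, among them Tubb6 (0.06 ± 0.08), Tuba1a (-0.06 ± 0.08) and Tubb2a (-0.03 ± 0.05).

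The beta-tubulins differed among themselves in this. The difference between Tubb5 and Tubb2a within a tumour grew by 0.21 log2 per SD of the proliferation score (r = 0.546, permutation p = 6e-05, adjusted over 4 such differences 6e-05). Among the 47 tumours r was 0.618 (adjusted p = 4e-05). These 4 pairs of genes were picked after their slopes had been seen, so the p-values describe the differences and give no independent support.

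**Figure D2:**
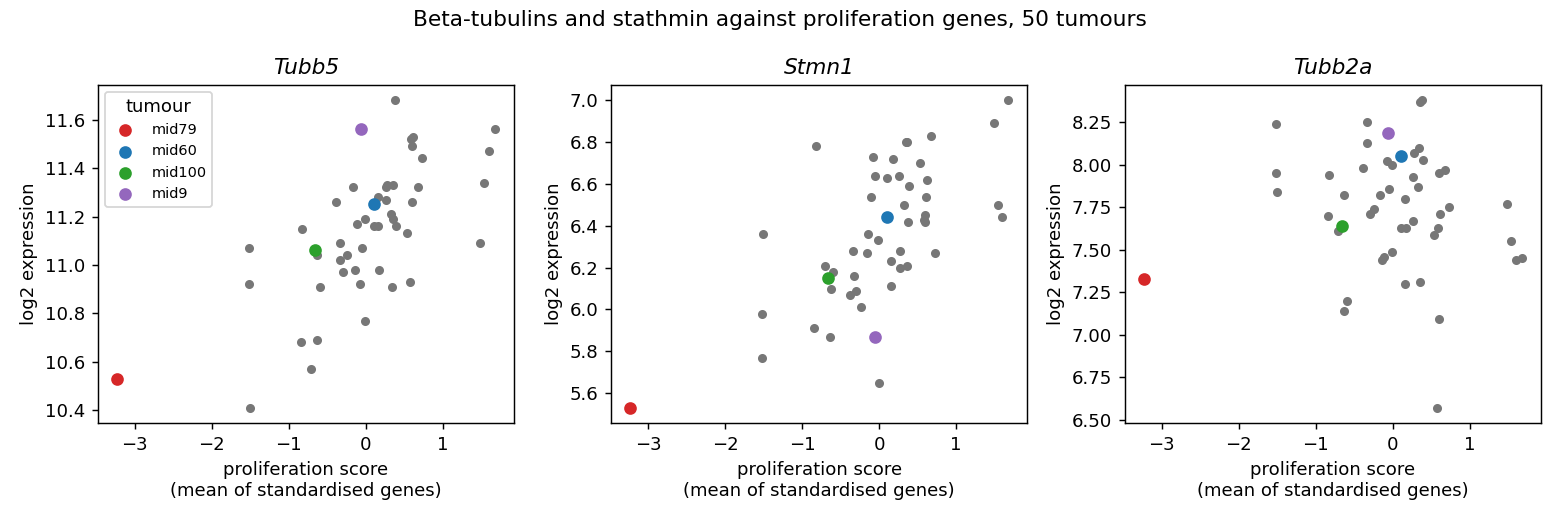
Each point is a tumour (n = 50), with the proliferation score on the horizontal axis and log2 expression on the vertical axis, which has its own range in each panel. Tubb5 (r = 0.672) and Stmn1 (r = 0.643) climb with the score and Tubb2a (slope -0.03 ± 0.05) does not; mid79 lies far left at -3.23.

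Fibroblast and matrix genes went with Map4, Tuba1a and Tubb6. All 3 were higher with the fibroblast and matrix score over 50 tumours, where 12.1% of tested genes were, and 2 genes were lower, Map2 and Stmn1, where 15% were. In a bulk biopsy fewer cells of a type and less RNA per cell cannot be told apart, here or in the relations that follow.

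Map4 had the steepest relation for its error, 0.32 ± 0.04 log2 per SD (limma, adjusted p = 1.37e-09; r = 0.772, rho = 0.667, permutation p = 1e-05 each). Its lowest tumour, mid115 at 6.68, also had the lowest matrix score (-1.57), while mid9 and mid100, with the highest scores (2.48 and 2.40), were at 8.28 and 8.22. Leaving these 2 tumours out gave r = 0.707. With the 3 arrays left out the slope was 0.22 ± 0.03 (adjusted p = 2.13e-06), beside 7.03% of genes higher and 2.86% lower.

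Tubb6 followed with 0.33 ± 0.06 (adjusted p = 2.44e-05; r = 0.614, permutation p = 2e-05; rho = 0.498, permutation p = 0.00027), and r was 0.477 without mid9 and mid100. For Tuba1a the slope was also 0.33 ± 0.06 (adjusted p = 3.86e-05; r = 0.604, permutation p = 1e-05; rho = 0.490, permutation p = 0.00037), and r was 0.505 without the same 2 tumours. Both were called again without the 3 arrays, at 0.28 ± 0.06 (adjusted p = 4.04e-04) for Tubb6 and 0.23 ± 0.06 (adjusted p = 0.00654) for Tuba1a.

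Map2 (-0.22 ± 0.06, adjusted p = 0.00486) and Stmn1 (-0.12 ± 0.04, adjusted p = 0.0306) were lower with the matrix score. Neither call held without the 3 arrays, at -0.11 ± 0.05 (adjusted p = 0.179) and -0.10 ± 0.04 (adjusted p = 0.170), nor without mid9 alone, at -0.15 ± 0.06 (adjusted p = 0.0543) and -0.11 ± 0.04 (adjusted p = 0.0760). The other beta-tubulins were not called, with slopes of 0.02 ± 0.04 for Tubb5, 0.05 ± 0.05 for Tubb2a and 0.05 ± 0.04 for Tubb3.

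Differences between genes within a tumour were tested on the matrix score too. Tubb6 minus Tubb5 grew by 0.32 log2 per SD (r = 0.628, permutation p = 2e-05, adjusted p = 2.67e-05) and Tuba1a minus Tubb5 by 0.31 (r = 0.610, permutation p = 1e-05, adjusted p = 2e-05). Map4 minus Map2 grew by 0.54 (r = 0.670, permutation p = 1e-05, adjusted p = 2e-05). All 3 differences were also called without the 3 arrays, with adjusted p of 3.47e-04, 5.6e-04 and 1.4e-04.

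**Figure D3:**
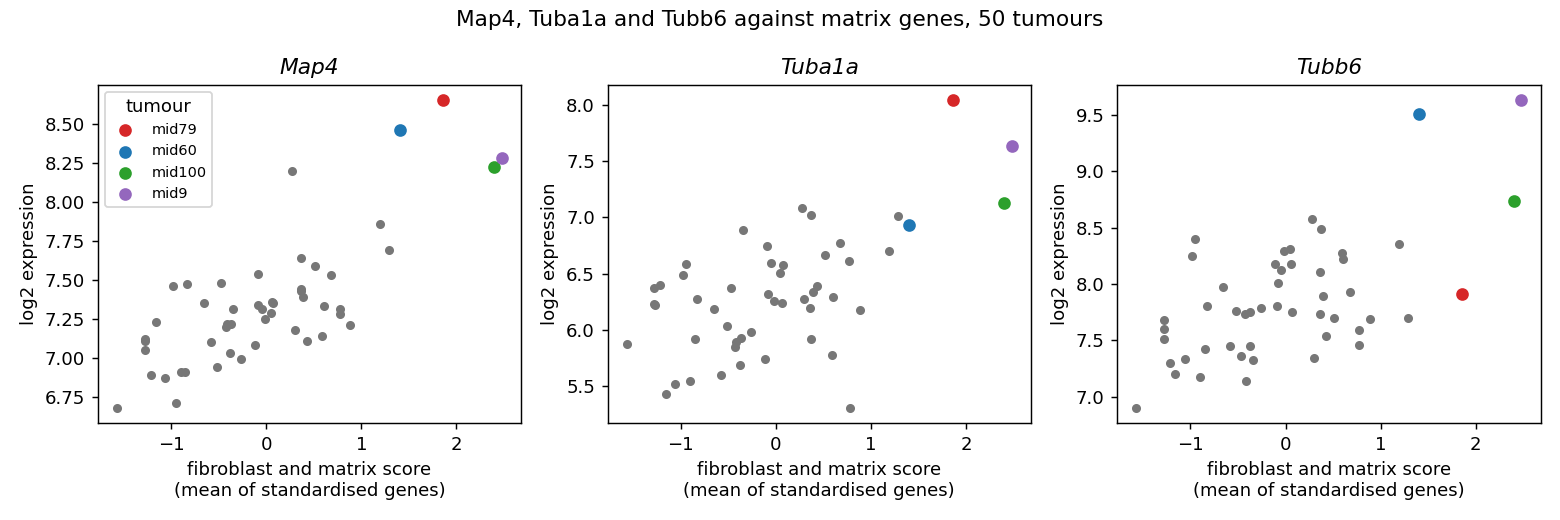
Each point is a tumour (n = 50), with the fibroblast and matrix score on the horizontal axis and log2 expression on the vertical axis, which has its own range in each panel. Map4 (r = 0.772), Tuba1a (r = 0.604) and Tubb6 (r = 0.614) climb with the score, and the coloured tumours hold the 4 highest scores.

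The same 3 genes went with the endothelial and the basal scores. These scores shared extreme tumours with the matrix score. The matrix and endothelial scores were both lowest in mid115 (-1.57 and -1.12) and second highest in mid100 (2.40 and 3.23). In mid9 the matrix score was highest (2.48) and the basal score second highest (1.06). How far the scores follow each other was not tested, so these relations cannot be counted as separate. With the endothelial score Map4 (0.30 ± 0.04, adjusted p = 2.85e-08), Tuba1a (0.32 ± 0.06, adjusted p = 6.51e-05) and Tubb6 (0.26 ± 0.07, adjusted p = 0.00147) were higher, where 14.6% of genes were. Map2 (-0.29 ± 0.05, adjusted p = 2.78e-05) and Stmn1 (-0.12 ± 0.04, adjusted p = 0.0245) were lower, where 20.7% were. With the 3 arrays left out, when 6.11% of genes were higher and 2.08% lower, Tubb6 (0.31 ± 0.05, adjusted p = 4.52e-05) and Map4 (0.18 ± 0.04, adjusted p = 9.96e-04) were called, while Tuba1a (0.16 ± 0.06, adjusted p = 0.133), Map2 (-0.10 ± 0.05) and Stmn1 (-0.06 ± 0.05) were not. The endothelial score was highest in mid79 (4.003) and mid100 (3.23), and for Tubb6 r was 0.487 with these 2 tumours and 0.666 without them.

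The basal and myoepithelial score was the one with which most of the 10 genes were higher, 5 against 10.9% of all genes, and none was lower, against 10.6%. Map4 led with 0.30 ± 0.04 (adjusted p = 1.11e-06; r = 0.712, rho = 0.720, permutation p = 1e-05 each, and r = 0.601 without mid60 and mid9). Tubb6 (0.32 ± 0.06, adjusted p = 1.40e-04), Tuba1a (0.27 ± 0.07, adjusted p = 0.00172), Tubb2a (0.14 ± 0.05, adjusted p = 0.0230) and Tubb3 (0.12 ± 0.03, adjusted p = 0.00602) were called too.

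Over the 47 tumours, where 6.4% of genes were higher and 4.07% lower, 4 of these were called. The slopes were 0.24 ± 0.03 for Map4 (adjusted p = 3.31e-06), 0.27 ± 0.06 for Tuba1a (adjusted p = 6.30e-04), 0.16 ± 0.05 for Tubb2a (adjusted p = 0.0156) and 0.20 ± 0.06 for Tubb6 (adjusted p = 0.0355). Tubb3 was not (0.03 ± 0.03, adjusted p = 0.705), and its r fell from 0.456 to 0.037 without mid60 and mid9. Stmn1 was called lower over neither 50 nor 47 tumours, though its r was -0.285 (permutation p = 0.0449) and -0.405 (permutation p = 0.00443). The smooth-muscle actin gene Acta2 ran from 7.90 to 11.46 log2 in this list, whereas Krt14, a keratin that defines basal cells, had a median of 4.34 and reached 10.16 in 1 tumour. Krt5 had no probe set of its own in the annotation.

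Erbb2 and the luminal genes gave relations that rested on the arrays that stand apart. Over 50 tumours Map2 was higher with Erbb2 (0.32 ± 0.05, adjusted p = 3.84e-06), where 16.6% of genes were. Map4 (-0.25 ± 0.05), Tubb6 (-0.21 ± 0.07), Tuba1a (-0.21 ± 0.07) and Tubb3 (-0.10 ± 0.03) were lower, where 14.7% were, with adjusted p between 4.64e-05 and 0.0281. Over the 47 tumours limma called 0 of 10 (0 of 10 at an unadjusted p under 0.05 and 0 of 10 by the permutation test of r as well), and 0.0554% and 0.105% of all genes were called higher and lower. For Map2 r was 0.655 (permutation p = 9.3e-04), rho 0.271 (permutation p = 0.0566) and r 0.288 without mid60 and mid79, the tumours with the lowest Erbb2. The signs for Tuba1a (0.06 ± 0.07, adjusted p = 0.747) and Tubb3 (0.01 ± 0.03, adjusted p = 0.952) turned.

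With the luminal score Map2 (0.28 ± 0.06, adjusted p = 1.54e-04) and Stmn1 (0.15 ± 0.04, adjusted p = 0.00536) were higher, against 12.7% of genes. Tuba1a (-0.27 ± 0.07, adjusted p = 0.00202) and Map4 (-0.18 ± 0.05, adjusted p = 0.0115) were lower, against 10.3%. With the 3 arrays left out limma called 0 of 10 at the adjusted threshold and 3 of 10 at an unadjusted p under 0.05 (1 of 10 by the permutation test of r), and 0.366% and 0.749% of all genes were called. The luminal score of mid79 was -3.82. Without mid79 alone 0 of 10 were called as well, beside 396 of all 18023 genes higher and 651 lower. Tubb2b and Mapt were called with none of the 6 predictors, over 50 or over 47 tumours.

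**Figure D4:**
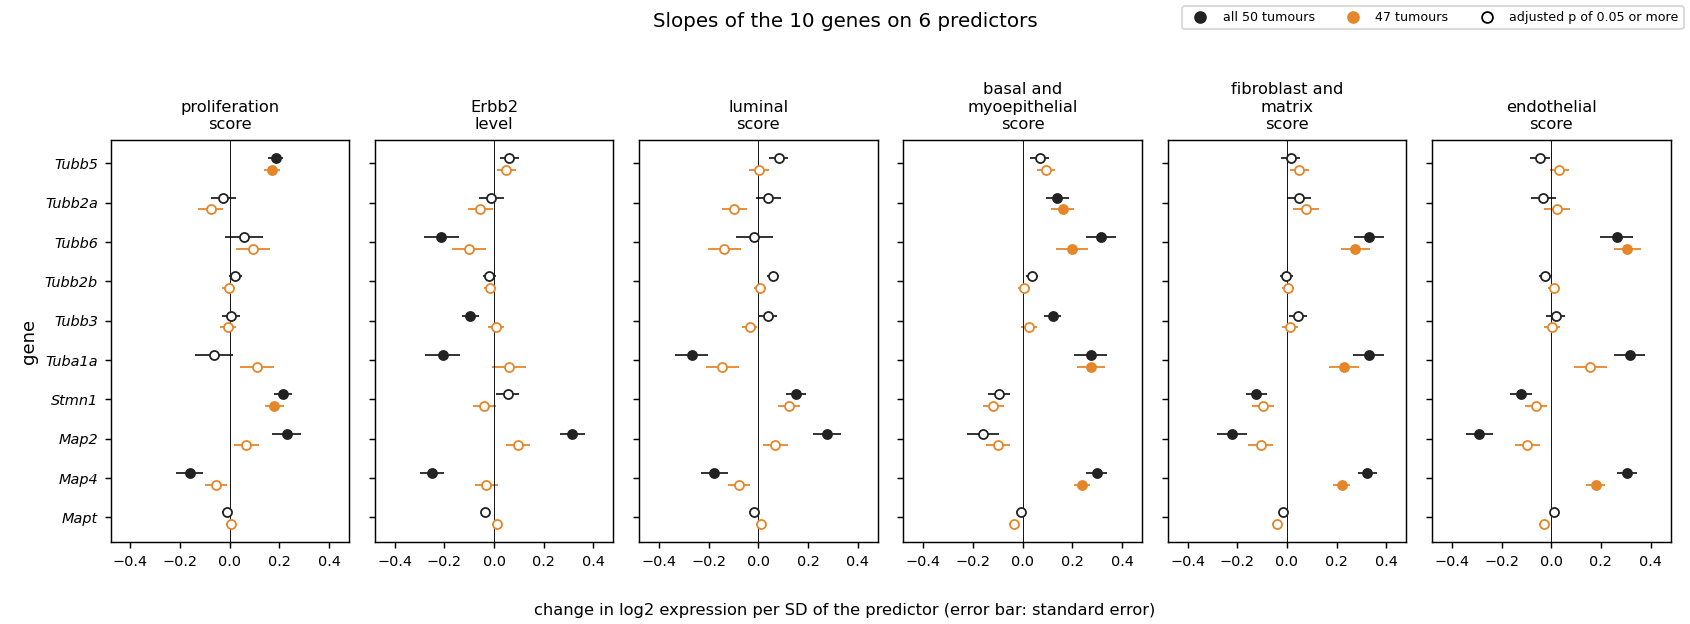
Horizontal axes give the slope in log2 per SD of each predictor, with its standard error as the bar, for all 50 tumours (black) and for the 47 without mid79, mid60 and mid100 (orange); open circles have an adjusted p of 0.05 or more. Filled orange circles mark Tubb5 and Stmn1 with proliferation, Map4, Tubb6 and Tuba1a with the matrix score, these and Tubb2a with the basal score, Map4 and Tubb6 with the endothelial score, and none of the 10 genes with Erbb2 or the luminal score.

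Markers of other cell types that a biopsy can hold were set against the 10 genes by the same limma fits, chosen after the first results were seen, and their part in the relations above was not tested. With the macrophage score Map4 (0.29 ± 0.04 log2 per SD, adjusted p = 4.32e-07), Tubb6 (0.30 ± 0.06, adjusted p = 3.43e-04) and Tuba1a (0.25 ± 0.07, adjusted p = 0.00533) were higher, where 11.9% of all genes were. Map2 (-0.24 ± 0.06, adjusted p = 0.00168) and Stmn1 (-0.16 ± 0.04, adjusted p = 0.00262) were lower, where 16.2% were. Over the 47 tumours, with 7.28% of genes higher and 5.39% lower, Map4 (0.20 ± 0.04), Tubb6 (0.21 ± 0.06), Map2 (-0.18 ± 0.04) and Stmn1 (-0.17 ± 0.04) were called again. Of the marker scores and the Erbb2 level this was the only one with which Map2 was called over the 47 tumours. Among these 47, mid9 had both the highest macrophage score (2.34) and the lowest Map2 (7.02 log2). The macrophage fit was not repeated without mid9 or on ranks, so how far the Map2 call rests on that tumour was not tested.

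With the adipocyte score Map4 (0.25 ± 0.05) and Tuba1a (0.29 ± 0.06) were higher, against 13% of genes, and Map2 (-0.31 ± 0.05) and Stmn1 (-0.14 ± 0.04) lower, against 15.9%. With the 3 arrays left out limma called 0 of 10 (1 of 10 at an unadjusted p under 0.05), and 1.29% and 0.0499% of all genes. The adipocyte score of mid79 was 5.33 and the next highest was 1.14. With the skin and squamous score, 6.52 in mid60 and at most 0.19 in the other tumours, Tubb3 (0.15 ± 0.03, adjusted p = 1.91e-04) and Tubb6 (0.21 ± 0.07, adjusted p = 0.0348) were higher, against 6.31% of genes, and none was lower, against 5.86%. Without mid60, mid79 and mid100 limma called 0 of 10 (1 at an unadjusted p under 0.05). Of all 18030 genes it then called 1 higher and 0 lower.

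Tubb3, Map2 and Mapt are known from neurons, so neuronal genes were set beside them. Of 14 neuronal genes 10 were above the filter, and Elavl4, Nefl, Nefm and Gap43 were below it. The SDs of the 10 ran from 0.11 (Snap25) to 0.22 (Syp), under the median of 0.23 over all tested genes. A score of genes that vary so little cannot decide whether Tubb3, Map2 and Mapt follow neurons. The score of the 10 ran from -0.61 to 1.08. With it limma called 0 of the 10 tubulin and microtubule-associated genes (2 at an unadjusted p under 0.05), against 1.13% of all genes higher and 0.0333% lower. With the skeletal muscle score, against 3.9% of genes higher and 0.948% lower, and with the peripheral nerve score, against 2.25% and 2.43%, it called 0 of 10 as well (3 at an unadjusted p under 0.05 each). Among the 47 tumours limma again called 0 of 10 with each of these scores. At an unadjusted p under 0.05 there were 1 with the neuronal score (0.804% of all genes called higher and 0.0277% lower), 2 with the muscle score (0.777% and 0.411%) and 2 with the nerve score (0% and 0%). In the nerve list Sox10 and Cdh19 had medians of 10.09 and 8.305 log2, far above the filter. The nerve score was lowest in mid79 (-1.15), where Krt18 and Epcam were lowest too. Nerve content can therefore not be read from it.

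Among themselves the 10 genes formed 45 pairs, of which 11 were called over 50 tumours with at least one gene of the pair as the predictor, 7 positive and 4 negative. As the predictor Map4 called 33.9% of all other genes, Map2 29%, Tuba1a 22.8%, Tubb6 19%, Stmn1 11.5%, Tubb5 8.52%, Tubb3 7% and Tubb2a 1.17%. For Tubb2b and Mapt limma called 0 genes, with 1841 and 1202 at an unadjusted p under 0.05. Over the 47 tumours 9 pairs were called. As the predictor Map4 then called 14.8% of genes, Tubb5 10.1%, Tuba1a 8.87%, Tubb6 7.57%, Map2 4.26%, Tubb2a 3.72% and Stmn1 3.54%. For Tubb3 and Tubb2b limma called 0 genes, with 1972 and 957 at an unadjusted p under 0.05, and for Mapt 1.

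Map4, Tuba1a and Tubb6 were correlated with each other, with and without the 3 arrays. For Map4 and Tuba1a r was 0.754 and rho 0.667 (permutation p = 1e-05 each; limma, adjusted p = 5.88e-07 with Tuba1a as the predictor), and r was 0.640 without mid79 and mid9. Map4 and Tubb6 gave r = 0.651 (permutation p = 1e-05) and rho = 0.555 (permutation p = 5e-05), and 0.498 without mid9 and mid60. Tuba1a and Tubb6 gave r = 0.531 (permutation p = 1e-04) and rho = 0.474 (permutation p = 6.3e-04), and 0.420 without the latter 2 tumours. Of the 45 pairs 6 were called in at least 1 direction both over 50 and over 47 tumours, and in these 3 the call was made in both analyses with each gene of the pair in turn as the predictor.

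Tubb5 and Tuba1a, the subunits of a dimer, were more closely related once the 3 arrays were left out. Over 50 tumours r was 0.361 (permutation p = 0.00939) and rho 0.486 (permutation p = 4.1e-04), and over 47 tumours r was 0.630 (permutation p = 1e-05; limma, adjusted p = 2.77e-04 with Tubb5 as the predictor). In mid79 Tubb5 was second from the bottom and Tuba1a at the top. Tubb5 with Tubb6 was called in 1 of the 2 directions over 50 tumours (r = 0.381) and in both over 47 (r = 0.454). Tubb5 with Map4 was called only over the 47 tumours (r = 0.438, adjusted p = 0.0253 with Tubb5 as the predictor, against r = 0.172 and adjusted p = 0.509 over 50). So were Tubb2a with Tuba1a (r = 0.443 against 0.301) and, in 1 of the 2 directions, Tubb2a with Map4 (r = 0.427 against 0.268, adjusted p = 0.0207 with Map4 as the predictor). When only mid130 and mid30, the 2 lowest tumours for Tubb2a, were left out of the 50, r was 0.207 with Tuba1a and 0.238 with Map4.

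Map2 ran against the other 3 over all 50 tumours, but with Tuba1a and Tubb6 this rested on few arrays. Map2 with Map4 had r = -0.625 (permutation p = 3e-05) and rho = -0.378 (permutation p = 0.00701), and r was -0.362 without mid79 and mid9. For Map2 with Tuba1a r was -0.493 and rho -0.166 (permutation p = 0.248), and r was -0.068 without the same 2 tumours. For Map2 with Tubb6 r was -0.371 and rho -0.147 (permutation p = 0.309), and r was -0.066 without mid9 and mid60. In the 47 tumours the last 2 pairs were not called (r = -0.228 and -0.375), and Map2 with Map4 was called in 1 of the 2 directions (r = -0.395, adjusted p = 0.0377 with Map4 as the predictor). Stmn1 went with Map2 (r = 0.498, rho = 0.378) and against Map4 (r = -0.386, rho = -0.313), and neither pair was called over the 47 tumours (r = 0.402 and -0.304). Tubb6 with Tubb3 was called over 50 tumours (r = 0.470, rho = 0.270) and not over the 47 (r = 0.285). Its r was 0.167 without mid9 and mid60.

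**Figure D5:**
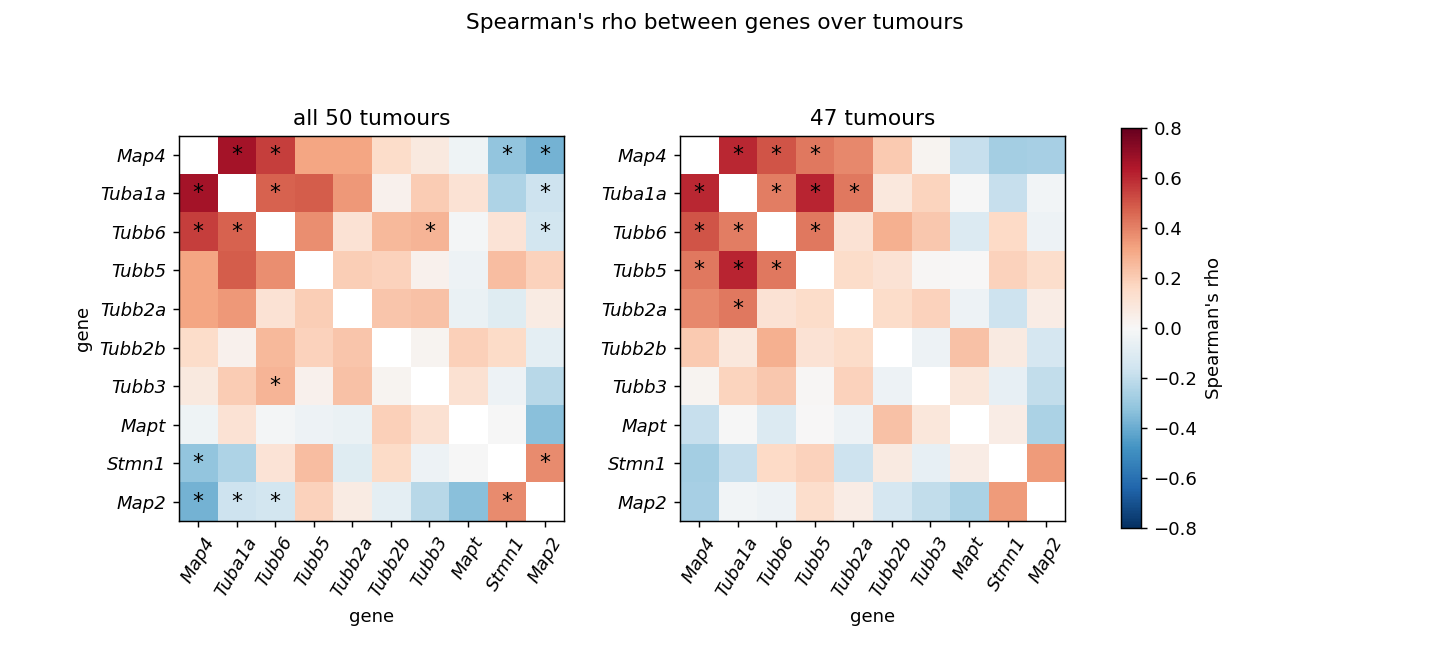
Colour gives Spearman's rho of each pair of genes over all 50 tumours (left) and the 47 without mid79, mid60 and mid100 (right); a star marks a limma adjusted p under 0.05 with each gene of the pair in turn as the predictor. Map4, Tuba1a and Tubb6 form a red block in both panels (rho 0.667 for Map4 with Tuba1a on the left), and the stars of Map2 are on the left only.

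The genes most like each of the 10 over the 50 tumours were found by Spearman's rho among all tested genes and are given as a description, since they are extremes of 18044 values. Those of Tubb5 were Nuf2, a kinetochore gene (0.764), and the replication helicase genes Mcm3 (0.755) and Mcm7 (0.749). For Stmn1 they were Cdc20, an activator of the anaphase-promoting complex (0.706), Ndc80, another kinetochore gene (0.683), and Srebf2, a regulator of sterol synthesis (0.675). Mcm3 and Cdc20 are among the genes of the proliferation score. In the 47 tumours rho was 0.762 for Nuf2 with Tubb5 and 0.691 for Cdc20 with Stmn1.

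For Map4 they were Msn, which encodes moesin, a linker of actin to the membrane (0.874), Pdlim7 (0.821) and Aebp1 (0.80), and at the other end Bhlha15, a factor of secretory cells (-0.796), and Slc35b2 (-0.795). For Tuba1a they were the intermediate filament gene Vim (0.722), Fkbp9 (0.692) and Palm (0.680), with Cracr2b (-0.705) and Ttll10 (-0.697) at the other end. Those of Tubb6 were Tmem184b (0.715), S100a10 (0.678) and 1700037H04Rik (0.658), with A730063M14Rik (-0.693) and Pik3cg (-0.681) lowest. In the 47 tumours rho was 0.852 for Msn with Map4, 0.667 for Vim with Tuba1a and 0.687 for Tmem184b with Tubb6.

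For Map2 the leading genes were Rhbdd2 (0.688), Anapc7 (0.671) and Wdr6 (0.670), with Zc3h8 (-0.635) lowest, and for Tubb2a they were Ccdc74a (0.654) and the actin-related Capg (0.634) and Anxa2 (0.627), with Scrn3 (-0.657) lowest. Tubb3 (Gm6745, 0.614), Tubb2b (Frg1, 0.568) and Mapt (8030442B05Rik, 0.590) had lower leading values.

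In 3 of the 10 genes a second probe set names the same gene. The second one of Tubb5 followed the first (r = 0.734, rho = 0.771, permutation p = 1e-05 each) and the proliferation score (r = 0.537, permutation p = 3e-05; rho = 0.524, permutation p = 1.3e-04). That of Tuba1a followed the first with r = 0.658 and rho = 0.457 and the matrix score with r = 0.556 (permutation p = 3e-05) and rho = 0.410. With the basal score the second one had r = 0.371 (permutation p = 0.0118) and rho = 0.256 (permutation p = 0.0723). The first had r = 0.504 and rho = 0.545 there. For Tubb2b the probe sets were less alike (r = 0.444, rho = 0.374), and the second went with proliferation (rho = 0.426, permutation p = 0.00251) where the first did not (rho = 0.028). Tubulin genes are very alike in their coding sequence and the probe sequences were not used here, so that signal shared between isotypes was not tested. Without the 3 arrays the r between the first and second probe sets was 0.713 for Tubb5, 0.541 for Tuba1a and 0.372 for Tubb2b.

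The promoters of the tubulins that parted in these comparisons are shown so that the sequence next to their start sites can be set beside their behaviour. They are the 200 bases before the start of Tubb5 (chr17:35838302-35838501), Tuba1a (chr15:98953502-98953701) and Tubb2a (chr13:34078009-34078208), all from RefSeq on GRCm38.p6 and all on the minus strand, 5′ to 3′ along the gene. Capitals mark CCAAT, the box bound by NF-Y, which is common in promoters of cell-cycle genes.
Tubb5: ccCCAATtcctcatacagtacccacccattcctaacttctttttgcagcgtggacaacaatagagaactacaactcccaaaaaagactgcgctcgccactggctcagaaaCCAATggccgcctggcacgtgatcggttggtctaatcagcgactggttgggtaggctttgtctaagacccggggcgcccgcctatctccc
Tuba1a: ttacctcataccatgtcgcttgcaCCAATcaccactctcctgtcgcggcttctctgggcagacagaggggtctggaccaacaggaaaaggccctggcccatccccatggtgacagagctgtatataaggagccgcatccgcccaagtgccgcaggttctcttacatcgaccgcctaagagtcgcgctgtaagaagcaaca
Tubb2a: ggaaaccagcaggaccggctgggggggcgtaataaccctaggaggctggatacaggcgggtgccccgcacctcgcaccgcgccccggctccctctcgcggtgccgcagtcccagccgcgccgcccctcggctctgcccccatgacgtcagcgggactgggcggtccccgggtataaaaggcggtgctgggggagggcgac

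Promoters were found for 6 of the 10 genes: Tubb5, Tubb3, Tubb2a, Tuba1a, Map2 and Map4. Tubb6, Tubb2b, Stmn1 and Mapt were not among the matches. Both strands of the 250 bases before the start were searched, and CCAAT was in 33.8% of all 32851 promoters. Tubb5, which went with proliferation, holds CCAAT 198 and 90 bases before its start, and Tuba1a, which did not, holds it at 176. Tubb3 holds CCAAT at 77 bases on the opposite strand, and Map4 at 79 and 39 bases on the opposite strand at 1 of its 2 listed starts and at 243 at the other.

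In Tubb2a and Map2 no CCAAT was in the window. GGGCGG, a box bound by Sp1-type factors and found in 32.7% of all promoters, was there in 5 of the 6 genes: 5 times in Map2, 3 times in Map4 at 1 of its starts, 2 times each in Tubb2a and Tubb3 and 1 time in Tuba1a. Tubb5 had none. TTTGAA (16% of all promoters) and TTCGAA (1.3%), the letters of cell-cycle homology elements, were in none of the 6 windows. The same holds for TTTGGCGC (0.4%), TTTCGCGC (0.3%), TTTCCCGC (0.9%) and TTTGCCGC (0.3%), letters of E2F sites. A match is a run of letters and not a shown site, and CCAAT was present in a gene that went with proliferation and in genes that did not.

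The rest of the microtubule system was counted on 3 lists. With proliferation 4 of 11 other tubulins were higher and 0 lower, against 11.3% and 8.18% of all genes, among them Tuba1c (0.20 ± 0.04), Tube1, the epsilon-tubulin of centrioles (0.17 ± 0.03), and Tubb4b (0.15 ± 0.03). Of 45 microtubule-binding genes 13 were higher and 5 lower, led by the spindle genes Tpx2 (0.60 ± 0.03), Prc1 (0.50 ± 0.04) and Tacc3 (0.39 ± 0.03). The proliferation score itself holds mitotic genes such as Bub1, Plk1 and Aurkb, so the calls of spindle genes give no independent support. Of 33 genes that fold, modify or sever tubulin 6 were higher and 3 lower, with Fignl1 (0.22 ± 0.03), Atat1, the alpha-tubulin acetyltransferase (0.22 ± 0.05), and Ttll12 (0.14 ± 0.03) first. Among the 47 tumours the counts were 3 and 0, 9 and 1, and 2 and 1, against 4.88% and 2.12% of all genes.

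With the matrix score 0 other tubulins were higher and 4 lower, against 12.1% and 15% of all genes, among them Tubg2, a gamma-tubulin (-0.16 ± 0.04), Tuba1c (-0.14 ± 0.05) and Tube1 (-0.14 ± 0.04). Tuba1a and Tuba1c, both alpha-tubulins, thus had slopes of opposite sign, 0.33 ± 0.06 and -0.14 ± 0.05. Microtubule-binding genes gave 13 higher and 4 lower, led by Dclk1, a doublecortin-like kinase (0.41 ± 0.07), Clip4 (0.38 ± 0.06) and Map7d1 (0.18 ± 0.03). Genes that fold, modify or sever tubulin gave 2 higher and 6 lower, with Tpgs2 higher (0.21 ± 0.05) and Ttll5, a glutamylase (-0.15 ± 0.04), and Hdac6, the tubulin deacetylase (-0.12 ± 0.03), lower. In the 47 tumours these counts were 0 and 0, 3 and 1, and 1 and 0, against 7.03% and 2.86% of all genes.

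With the endothelial score the lists gave 2 and 3, 12 and 8, and 4 and 8 genes higher and lower, in the order above, against 14.6% and 20.7% of all genes. Map7d1 (0.19 ± 0.03) was higher and Map7 (-0.29 ± 0.04), Atat1 (-0.25 ± 0.05), Tuba1c (-0.21 ± 0.04) and Hdac6 (-0.15 ± 0.02) lower. Basal genes gave 0 and 2, 8 and 3, and 1 and 4, against 10.9% and 10.6%, with Clip4 (0.29 ± 0.07) higher and Slain1 (-0.23 ± 0.04) lower. For Erbb2 the counts were 2 and 0, 7 and 10, and 6 and 2, against 16.6% and 14.7%, with Atat1 (0.35 ± 0.04) and Slain1 (0.26 ± 0.04) higher. The luminal score gave 2 and 0, 12 and 7, and 6 and 3, against 12.7% and 10.3%, with Map7, an epithelial kinesin cofactor (0.33 ± 0.03), higher. Except with the basal score, the counts of microtubule-binding genes over 50 tumours include Map7d3, whose slopes are not given: its mean passed the filter through mid79 alone (7.23 log2, where the next tumour was at 5.61), and without mid79 it was 4.06, under the filter. With the 3 arrays left out the sums over the 3 lists were 3 with the endothelial, 8 with the basal and 2 with the luminal score, and 0 with Erbb2. Of all genes 6.11% were then higher and 2.08% lower with the endothelial score, 6.4% and 4.07% with the basal score, 0.366% and 0.749% with the luminal score and 0.0554% and 0.105% with Erbb2.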

How the data were processed

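Trizol was used for total RNA of the 50 biopsies, and 6 ug of it went into biotinylated cRNA, per the labels. The values deposited by the authors are on a log2 scale, made with RMA per the submitters' processing notes; its version is not stated, and mm8 is the build named, without a role. RMA equalises the distribution of all arrays, so that a shift common to the majority of genes is removed. The file holds 34472 probe sets. The platform annotation names 1 gene for 23521 of them, several for 1814 and none for 9137, and 23328 were found in the RefSeq table of GRCm38.p6, used for current symbols. Each gene was read from its probe set of highest mean, and a gene was tested where that mean was at least 4.09 log2 (25th percentile of probe sets).

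All 50 samples form 1 group, and 0 pairs of arrays were identical. Every tested gene was fitted on each predictor with limma 3.58.1 (lmFit, eBayes with trend) in R 4.3.3, without covariates, and p-values were adjusted by Benjamini-Hochberg over all tested genes other than those in the predictor. Correlations have two-sided permutation tests (100000 permutations, scipy 1.17.1). Of the other microtubule lists up to 3 called genes with the largest moderated statistic are named for a predictor, and for each of the 10 genes those highest (3) and lowest (2) by rho. The fits were tested on simulated data. The 10 genes, the lists and the alternatives were chosen with earlier results of these data known. Leaving out mid9, 6 further predictors and the 4 differences between genes were added after the values were seen. Precision is limited by the number of arrays.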

Additional observations from a re-analysis of the deposited data

How the results depend on the processing

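The 28 called relations were refitted under up to 14 alternatives. In 9 the direction and the call held under each alternative run: Tubb5 and Stmn1 with proliferation, Map4 with the basal, fibroblast and endothelial scores, Tuba1a with the basal and fibroblast scores, and Tubb6 with the fibroblast and endothelial scores. No alternative read Tuba1a from its second probe set alone. Ranks kept 10 of the 28, leaving out mid79 alone kept 18, and leaving out mid79, mid60 and mid100 kept 11. Counts of the 10 genes called were as follows, each with the counts of all tested genes called higher and lower. The shares of all genes without the 3 arrays are given in the sections above. Proliferation gave 4, and 2 with ranks, with array weights, without the 3 arrays and without mid79. Of 18015 genes 2039 were higher and 1473 lower, then 842 and 179 with ranks and 816 and 242 with array weights. Without mid79 it was 840 and 281 of 18012. Erbb2 gave 5, and 0 with ranks, array weights or without the 3 arrays. Of 18044 genes 2989 were higher and 2659 lower, then 80 and 77 with ranks and 144 and 226 with array weights. The luminal score gave 4, then 0 with ranks, array weights, without the 3 arrays or without mid79, and 2 with the proliferation score as a covariate. Of 18026 genes 2286 were higher and 1856 lower, then 13 and 1 with ranks and 132 and 282 with array weights. Without mid79 it was 396 and 651 of 18023, and with the covariate 1197 and 1264 of 17996. For the basal score 5 became 3 with ranks, array weights or a median score. Of 18032 genes 1962 were higher and 1917 lower, then 1140 and 807 with ranks and 1033 and 616 with array weights. A median score gave 1313 and 951. Without mid79 alone, and with the filter at the 50th percentile, 1 gene was called lower with the basal score. Lower among all genes were 2248 of 18029 and 1502 of 12909 there. The fibroblast score gave 5, and 3 with ranks, array weights, without the 3 arrays, or without mid9 (an alternative chosen after seeing the data). Of 18024 genes 2185 were higher and 2707 lower, then 1542 and 1211 with ranks and 1281 and 451 with array weights. Without mid9 it was 2073 and 2213 of 18025. The endothelial score gave 5, then 2 with ranks, array weights or without the 3 arrays, and 3 without mid79. Of 18025 genes 2623 were higher and 3738 lower, then 1498 and 1165 with ranks and 1364 and 592 with array weights. Without mid79 it was 1872 and 1909 of 18022. Pairs went from 11 to 5 with ranks and 6 with array weights. As the predictor Map4 called 2839 genes higher and 3282 lower, then 1738 and 1668 with ranks and 1545 and 1048 with array weights. For Map2 it was 3044 and 2195, then 230 and 36, and 212 and 101. Tubb5 changed less, from 1054 and 484 to 983 and 476, and 1026 and 587.

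Of the genes of the 3 other microtubule lists, the number called with proliferation was 31, and 18 with ranks, 15 with array weights, and 16 without the 3 arrays or without mid79. With Erbb2 it was 27, then 0, 1, 0 and 11 in the same order, and with the luminal score 30, then 0, 4, 2 and 3. The basal score gave 18, then 10, 7 and 8, and 7 without mid60. The fibroblast score gave 29, then 14 with ranks, 8 with array weights and 5 without the 3 arrays. The endothelial score gave 37, then 11, 5, 3 and 12 without mid79. All genes called under these alternatives are counted in the paragraph above, apart from 2 cases. With Erbb2 without mid79, 1713 of 18041 genes were higher and 1734 lower. With the basal score without mid60, 967 of 18032 were higher and 623 lower. Signs turned for Tuba1a with Erbb2 without the 3 arrays (0.0585) and for Tubb3 with Erbb2 without the 3 arrays (0.00629) and without mid60 (0.0143). The cause was not tested. Removing the filter, setting it at the 50th percentile, other probe sets of a gene and a second quantile normalization moved no count of the 10 genes called by over 1.5 times; Tubb3 and Mapt are below the stricter filter. No paired analysis was possible because the 50 tumours form 1 group with no shared replicate numbers. Signal near background limits Tubb3 and Mapt.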
